A study of Mus musculus with 230 samples.

Results

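Injured sensory neurons of the dorsal root ganglia, the clusters of nerve cell bodies beside the spinal cord, were compared between mice of 12 months and of 1 month. The comparison rests on 6 of the 230 samples of the series, the 3 low-input RNA libraries of injured neurons at each of these ages. They were chosen by their labels, not by their values, and the test used autosomal genes only. All mice were C57BL/6 X CAST/Ei crosses, a laboratory strain crossed with a wild-derived one, and the injury was to the sciatic nerve, which carries the axons of these ganglia to and from the leg. The groups were therefore injured neurons at 12 months (3 libraries) and at 1 month (3 libraries), with injured neurons at 8 months (3 libraries) and intact neurons at 12, 8 and 1 month (3 libraries each) as context. Per the labels' protocols, L4 and L5 ganglia were dissociated, neurons were picked by hand, and the cytoplasm, without the nucleus, was made into SMART-seq2 libraries, a method that copies and amplifies messenger RNA from very few cells. The labels give no time after injury, no sex, no direction of the cross and no number of neurons or animals behind a library, so p-values measure the spread between libraries.

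The 6 libraries held 7531967 to 11174156 endogenous fragment counts. A single feature, CT010467.1, took 29.4% to 39.8% of them and was left out, and 4275785 to 6444072 autosomal counts a library remained for the test. Rank correlations over genes were 0.952 to 0.970 for the 6 pairs of libraries of 1 age and 0.914 to 0.955 for the 9 pairs between ages. Counts on 4 Y-linked genes were 374, 343 and 287 at 1 month and 0 in each library at 12 months, while Xist, the RNA of the inactive X chromosome of females, had 0 counts at 1 month and 226, 53 and 34 at 12 months. Age and sex can therefore not be told apart in any difference between 12 and 1 month below. The 8-month libraries of injured neurons carried 211 to 392 Y-linked counts and 0 Xist counts, so 12 and 8 months differ in the same way and 8 and 1 month do not. The general sensory neuron markers summed to 17271 to 19485 CPM (autosomal counts scaled to a common library size) at 12 months and to 18930.2 to 19379 CPM at 1 month, and all 12 passed the filter on low counts, so the label of sensory neurons was met at both ages. In bulk libraries like these, fewer cells of a kind and less RNA per cell cannot be told apart.

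When the axon of a sensory neuron is cut, the cell body switches on transcription factors such as Atf3, Sox11, Jun and Stat3, neuropeptides such as galanin, and growth-associated proteins, and lowers many genes of its resting state. Large sensory neurons with myelinated axons, which carry touch and limb position, are rich in neurofilaments and in ion channels for fast firing. Regrowth after nerve injury is known to slow with age in rodents, and a comparison of injured neurons between ages asks which of these programmes differ.

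In injured neurons, 563 of 12587 autosomal genes tested differed between 12 and 1 month at an adjusted p below 0.05 (edgeR's quasi-likelihood test with Benjamini-Hochberg adjustment), which is 4.47% of the genes tested. Of these, 244 genes (1.94%) were higher and 319 (2.53%) lower at 12 months, and the median log2 change of all genes tested was 0.0013. A further measure of the spread is that 3789 genes (30.1%) had no overlap between the 3 and 3 libraries, and all 563 called genes were among them. Scaling to the ERCC spike-ins, RNAs added in known amount, moved the median of all genes to -0.28 and called 35 genes, 20 higher and 15 lower, and all 563 genes kept their direction. Directions below are on the scaling that centres the genes. The calls ran from strongly expressed genes such as Nefh and Map1a, with small changes, to genes near the limit of detection with large ones, as the plot of change against level shows.

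**Figure D1:**
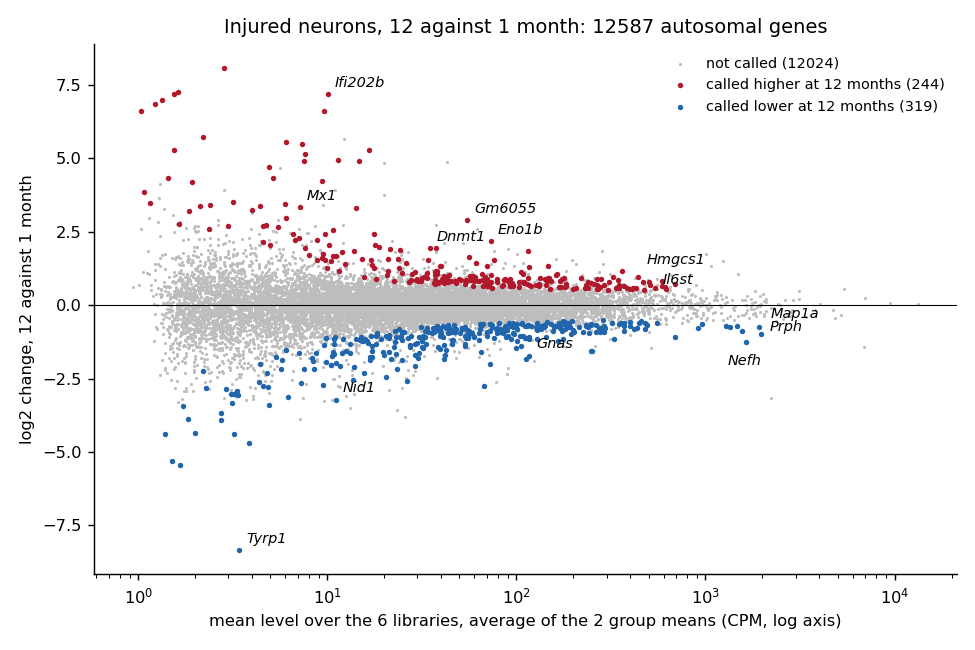
Log2 change at 12 against 1 month in injured neurons (vertical) against the level in CPM averaged over the 2 group means (horizontal, log axis) for 12587 genes. Red points are the 244 genes called higher, blue points the 319 called lower and grey points the others, and the changes of the strongly expressed called genes such as Nefh, Prph and Map1a are small beside those of genes with few counts.

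The number of calls rested on which libraries entered the test. Leaving out 1-month replicate 1, 2 or 3 gave 378, 104 and 172 calls, and leaving out 12-month replicate 1, 2 or 3 gave 137, 245 and 156. With the 8-month libraries added to the fit 106 of the 563 genes were also called, and with the intact libraries of both ages added 9 were. Among the 93 called genes that are list members, largest changes or genes singled out below, 25 kept their call whichever of the 6 libraries was left out. The call was lost by 32, 63 and 52 of the 93 without 1-month replicate 1, 2 or 3 and by 57, 42 and 56 without 12-month replicate 1, 2 or 3, so a call marked below as kept without any 1 library is the firmer kind.

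Among genes of large-fibre neurons, Nefh was lower at 12 months. Of 14 markers of the neurofilament class of sensory neurons, all tested, 2 fell (14.3%, beside 2.53% of all genes tested), none rose and 12 had a negative change, with a median log2 change of -0.42. Relative to all genes this median ran from -0.65 to -0.24 with 1 library left out. Nefh, which encodes the heavy neurofilament subunit that widens large axons (chr11:4938754-4948064, GRCm38), stood at 1100.3, 1024 and 813 CPM at 12 months, beside 2124, 2105 and 2658 CPM at 1 month. The 3 older libraries all lay below the 3 younger ones, as in every gene called lower. The log2 change was -1.25 ± 0.16 (SE, edgeR adjusted p = 0.00597), and the call was kept without any 1 library. The light and medium neurofilament genes had smaller changes that were not called, -0.16 for Nefl and -0.43 for Nefm, and the parvalbumin gene Pvalb varied widely (-1.91 ± 1.21). The summed level of the 14 markers was 11356, 12460.1 and 9683 CPM at 12 months and 12802, 16651 and 15798 CPM at 1 month. These sums do not overlap, which 3 against 3 libraries can give with an exact permutation p of 0.1 at best (0.4 adjusted over 12 library measures).

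Prph, Map1a and Thy1 also fell. Prph encodes peripherin, the intermediate filament of peripheral neurons, and its level was 1278, 1466 and 1211 CPM at 12 months against 2757, 2175 and 2856 CPM at 1 month (-0.997 ± 0.15 on the log2 scale, edgeR adjusted p = 0.00998). Its call was kept without any 1 library. Map1a, a microtubule-binding protein of mature neurons, and Thy1, a surface glycoprotein of projection neurons, were named after their values were seen. Map1a was at 1437, 1399.7 and 1520.1 CPM at 12 months and 2364, 2587 and 2261 CPM at 1 month (-0.75 ± 0.12, edgeR adjusted p = 0.0134). Thy1 was at 702, 663 and 674 and 1226, 1125 and 1069 CPM (-0.77 ± 0.12, edgeR adjusted p = 0.0129). Within the list of 12 general neuronal markers Prph fell and Avil, which encodes the actin-binding protein advillin, rose from 501 ± 19.3 to 742 ± 44.1 CPM (SD, n = 3 each; 0.55 ± 0.12, edgeR adjusted p = 0.0355), while the list's median change was -0.01. The Avil call was lost whichever library was left out, with an adjusted p of up to 0.113.

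Of 124 genes of voltage-gated and related channels, 83 passed the filter on low counts, and 6 of these fell (7.23%, beside 2.53% of all genes tested) and 2 rose (2.41%, near the 1.94% of all genes). The median log2 change was -0.23, and relative to all genes it ran from -0.37 to -0.12 with 1 library left out. The channels that fell were of several families. Kcng4, a modifying potassium channel subunit, stood at 6.82, 4.94 and 14.2 CPM at 12 months against 40.3, 47.2 and 26.7 CPM at 1 month (-2.17 ± 0.39, edgeR adjusted p = 0.0229). Hcn2, a pacemaker channel opened by hyperpolarization, stood at 18.4, 25.6 and 18.5 CPM against 39.6, 77.5 and 56.9 CPM (-1.49 ± 0.26, edgeR adjusted p = 0.0188). In both the lowest library of 1 month lay above the highest of 12 months, and no called gene had overlap between the ages. Cacna1a, the pore of the P/Q-type calcium channel, fell by 0.88 on the log2 scale (edgeR adjusted p = 0.0469). The channels that rose were Kcnj3, an inwardly rectifying potassium channel opened by G proteins, from 8.97 ± 3.89 to 34.1 ± 11.1 CPM (1.90 ± 0.35, edgeR adjusted p = 0.0227), and Kcnk13, a potassium leak channel, from 5.08 ± 0.734 to 16.3 ± 3.28 CPM (1.66 ± 0.29, edgeR adjusted p = 0.0188). Each of these named channel calls was lost with at least 1 library left out. The channel list also had a negative median between 12 and 1 month in intact neurons, -0.50, with 63 of 87 lower and none called.

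Nuclear genes of oxidative phosphorylation, the mitochondrial chain that makes ATP, were lower at 12 months as a group. Of 73 members, all tested, 15 (20.5%, beside 2.53% of all genes tested) fell and none rose, 67 had a negative change and the median log2 change was -0.39. The members that fell belonged to complex I (5 of 35: Ndufa2, Ndufa13, Ndufb8, Ndufb9 and Ndufs7), complex III (3 of 9: Cyc1, Uqcr11 and Uqcrq), complex IV (4 of 10: Cox5b, Cox6a1, Cox7a2l and Cox8a) and the ATP synthase, complex V (3 of 15: Atp5g1, Atp5g2 and Atp5j), and none of 4 to complex II. The changes were small and alike, from -0.91 for Atp5g1 to -0.58 for Cox8a on the log2 scale. Atp5g1, a subunit of the rotating ring of the ATP synthase (chr11:96068852-96075670), stood at 171, 209 and 199 CPM at 12 months and 334, 433 and 311 CPM at 1 month (-0.91 ± 0.16, edgeR adjusted p = 0.0185). Cox5b, a subunit of cytochrome c oxidase, stood at 191, 233 and 202 CPM and 368, 402 and 319 CPM (-0.82 ± 0.14, edgeR adjusted p = 0.0188). Uqcr11, a subunit of complex III, stood at 143, 175 and 171 CPM and 259.9, 269 and 272 CPM (-0.73 ± 0.13, edgeR adjusted p = 0.0210). In all 3 genes the ages did not overlap, as in every called gene.

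The summed level of the 73 genes was 15914, 18007 and 17309.5 CPM at 12 months and 18679, 25088 and 19286 CPM at 1 month, so that the highest older library lay just below the lowest younger one. No member kept its call when each of the 6 libraries was left out in turn, while the list's median relative to all genes stayed between -0.46 and -0.23. Pink1, a kinase that marks damaged mitochondria for removal and was named after its values were seen, fell from 199.7, 281 and 246 to 109, 119 and 105 CPM (-1.14 ± 0.16, edgeR adjusted p = 0.00799) and kept its call without any 1 library. In intact neurons the same 73 genes had a median log2 change of 0.06 between the ages, with 42 higher, 31 lower and none called. Without the intact library labelled 12 months replicate 2, in which 93.8% of endogenous counts were CT010467.1, the intact median was 0.39, with 66 of 73 higher and 3 called. At 8 against 1 month in injured neurons 71 of 73 were lower, 2 of them called, with a median of -0.34, and at 12 against 8 months the median was 0.01, with 1 called higher.

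**Figure D2:**
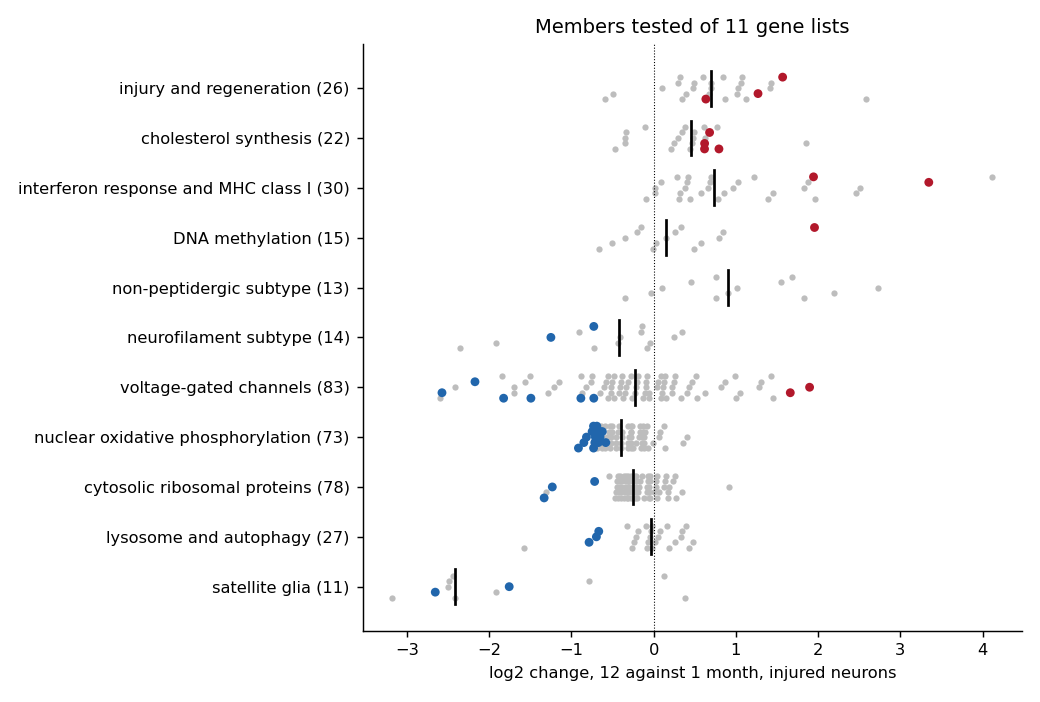
Log2 change at 12 against 1 month in injured neurons for the members tested of 11 gene lists, with the number tested in brackets. Red and blue points were called higher and lower, grey points were not called, and bars are medians; oxidative phosphorylation lies left of 0 with 15 calls, injury and regeneration right of 0 with 3.

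Genes of the response to nerve injury were mostly higher at 12 months, although few passed the test. Of 29 members of the injury and regeneration list 26 were tested, 3 rose, none fell and 24 had a positive change, with a median log2 change of 0.70. Among all genes tested 1.94% rose. The same list had a median of -0.72 between 12 and 1 month in intact neurons, with 19 of 26 lower and none called. Its median in injured neurons was 0.14 at 8 against 1 month and 0.57 at 12 against 8 months, with none called. Stat3, the transcription factor that carries cytokine signals from the injured axon to the nucleus (chr11:100885098-100939540), was at 457, 473 and 433 CPM at 12 months and 322, 239 and 305 CPM at 1 month (0.63 ± 0.15, edgeR adjusted p = 0.0403). Nfil3, a transcriptional repressor induced by axon injury, was at 26.8, 42.7 and 24.4 CPM and 12.1, 9.30 and 9.86 CPM (1.57 ± 0.27, edgeR adjusted p = 0.0187). Plaur, the receptor of the protease urokinase, was at 41.6, 29.95 and 30.2 CPM and 15.9, 17.8 and 7.62 CPM (1.27 ± 0.31, edgeR adjusted p = 0.0460). None of these 3 calls held without every library in turn, and their adjusted p rose to 0.104, 0.0675 and 0.137.

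Components of the gp130 pathway, which signals to Stat3, were picked out after their values were seen. Il6st encodes gp130, the shared receptor chain for interleukin 6 and related cytokines (chr13:112464070-112510086), and stood at 577, 705 and 620.3 CPM at 12 months and 347, 334 and 416 CPM at 1 month (0.78 ± 0.14, edgeR adjusted p = 0.0215, up to 0.0662 with 1 library left out). Socs2, a suppressor of cytokine signalling, stood at 44.4, 63.2 and 45.5 CPM and 18.3, 13.2 and 21.1 CPM (1.53 ± 0.24, edgeR adjusted p = 0.0129) and kept its call without any 1 library. Socs3, the feedback inhibitor on the list, had a change of 0.32 ± 0.18 that was not called (edgeR adjusted p = 0.324). In intact neurons Il6st went the other way, with 201, 89.9 and 68.2 CPM at 12 months and 361, 242 and 458 CPM at 1 month, and its age effect differed between injured and intact neurons by 2.30 on the log2 scale, which did not pass the test (edgeR adjusted p = 0.277).

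The best known injury markers were higher on average at 12 months but were not called. Atf3, the transcription factor that marks axotomized neurons, was at 1133, 1317 and 907 CPM at 12 months and 800.1, 333 and 512 CPM at 1 month (1.01 ± 0.32, edgeR adjusted p = 0.122). The ages did not overlap, as for 30.1% of all genes tested. Sprr1a, a protein of growing axons, was at 1494, 2759.6 and 1794 CPM and 1628, 687 and 549.6 CPM, with overlap between the ages (edgeR adjusted p = 0.279). Jun was at 385 ± 99.4 and 354 ± 52.4 CPM, a log2 change of 0.10 (edgeR adjusted p = 0.800). Of 13 neuropeptide genes 10 were tested and none was called (median -0.49, 4 positive and 6 negative). Galanin (Gal), a peptide induced by axotomy, was at 2408, 1355 and 911 CPM and 573, 536 and 285 CPM, without overlap (1.72 ± 0.44, edgeR adjusted p = 0.0904). Npy had a change of 0.20 ± 0.19 and Nts of 0.34 ± 0.16. The peptides of resting pain-sensing neurons were uneven between libraries. Calca, the gene of the pain peptide CGRP, ranged from 293 to 3148 CPM among the 3 older libraries.

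Markers of the small-diameter classes of sensory neuron were counted in the same way, and none was called. The non-peptidergic list had 13 of 16 members tested, 11 of them positive, with a median log2 change of 0.91. Relative to all genes this median ran from 0.65 to 2.02 with 1 library left out, the highest without 1-month replicate 3. Gfra1, a receptor subunit for glial-derived growth factor, was at 757, 1265 and 627 CPM at 12 months and 635, 282 and 382 CPM at 1 month. P2rx3, the ATP receptor of pain fibres, was at 229.9, 204 and 129 and 105, 69.7 and 154 CPM. The peptidergic list had a median of -0.39 over 10 members, and 12-month replicate 2 was its lowest older library in Calca. The medians of the peptidergic and neuropeptide lists had no stable sign. Relative to all genes they ran from -1.22 to 0.17 and from -0.64 to 0.17 with 1 library left out, and were highest without 1-month replicate 3. The tyrosine hydroxylase list had a median of -0.07 over 5 of 7 members, with Piezo2, the touch channel, at 502 ± 35.4 and 519.6 ± 43.7 CPM.

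Enzymes of cholesterol synthesis were higher at 12 months. Of 22 members, all tested, 4 rose (18.2%, beside 1.94% of all genes tested), none fell and 17 had a positive change, with a median log2 change of 0.46. The 4 were Hmgcs1, Sqle, Msmo1 and Sc5d, which act at the start, the middle and the later steps of the path. These genes are known to be switched on together by the transcription factor SREBP2, which acts with the CCAAT-binding factor NF-Y, so the promoters of the called members are shown. They are 250 bases before the RefSeq gene start (GRCm38.p6), 5′ to 3′ on the gene's strand, with capitals for CCAAT or its reverse complement ATTGG and for the sterol element CACCCCAC. The windows are chr13:119690101-119690350 on the plus strand, chr8:64733579-64733828 on the minus strand and chr9:42264301-42264550 on the minus strand, and the promoter of Sqle was not used here.
Hmgcs1: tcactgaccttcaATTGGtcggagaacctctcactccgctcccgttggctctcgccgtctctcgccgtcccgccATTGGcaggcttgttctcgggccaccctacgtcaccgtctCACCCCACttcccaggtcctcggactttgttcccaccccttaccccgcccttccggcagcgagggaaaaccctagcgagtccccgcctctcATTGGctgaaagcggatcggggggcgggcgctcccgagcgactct
Msmo1: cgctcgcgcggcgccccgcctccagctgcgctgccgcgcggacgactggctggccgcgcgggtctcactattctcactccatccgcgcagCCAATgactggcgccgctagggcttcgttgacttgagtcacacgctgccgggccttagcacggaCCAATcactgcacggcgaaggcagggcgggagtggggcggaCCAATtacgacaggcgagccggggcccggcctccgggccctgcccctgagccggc
Sc5d: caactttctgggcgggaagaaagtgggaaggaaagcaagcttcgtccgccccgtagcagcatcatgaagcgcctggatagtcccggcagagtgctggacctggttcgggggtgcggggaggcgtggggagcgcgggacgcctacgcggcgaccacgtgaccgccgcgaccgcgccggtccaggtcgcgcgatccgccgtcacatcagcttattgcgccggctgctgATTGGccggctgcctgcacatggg
A search of both strands found 3 CCAAT boxes and 1 sterol element for Hmgcs1, 3 CCAAT boxes for Msmo1 and 1 for Sc5d. CCAAT was in 13 of the 15 promoters matched for the list (86.7%), in 36.02% of 9414 promoters of genes tested and in 34.5% of all 27025 promoters of 250 bases. CACCCCAC was in 2 of the 15 and in 2.51% of all. These matches describe letters and no binding was measured.

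Hmgcs1 encodes the enzyme that makes HMG-CoA, the entry to the path (chr13:119690379-119708260), and its level was 603, 639.5 and 554 CPM at 12 months and 344, 291 and 387 CPM at 1 month (0.79 ± 0.14, edgeR adjusted p = 0.0201). Sqle, squalene epoxidase, was at 328, 348 and 329 CPM and 223, 179 and 244 CPM (0.62 ± 0.15, edgeR adjusted p = 0.0440). Msmo1, a sterol methyl oxidase, was at 221, 216 and 177 CPM and 127, 123 and 144 CPM (0.62 ± 0.15, edgeR adjusted p = 0.0427). For each of these the 3 older libraries lay above the 3 younger ones, as in every gene called higher. Sc5d, sterol C5 desaturase, went from 96.9 ± 4.54 to 157 ± 21.4 CPM (0.68 ± 0.15, edgeR adjusted p = 0.0338). The calls are near the threshold, since the adjusted p of the 4 rose to between 0.0585 and 0.124 with 1 library left out, while the list's median relative to all genes stayed between 0.30 and 0.55. In intact neurons the list's median was -0.37 with none called (2 called lower without intact 12-month replicate 2), and at 8 against 1 month in injured neurons it was 0.21 with none called. Pooled single injured cells kept the order of the low-input libraries for Hmgcs1 (721 CPM at 1 year against 629 at 1 month). They had the opposite order for Sqle (397 against 508 CPM), Msmo1 (258 against 292 CPM) and Sc5d (151 against 218 CPM).

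Among genes of DNA methylation Dnmt1 alone was called, 1 of 15 tested (6.67%, beside the 1.94% of all genes tested that rose). It encodes the enzyme that copies methyl marks onto new DNA and is also expressed in mature neurons (chr9:20907209-20959888). Its level was 54.3, 66.05 and 45.5 CPM at 12 months and 13.3, 13.9 and 15.5 CPM at 1 month, a rise of 3.89-fold between the means (1.94 ± 0.21, edgeR adjusted p = 0.00245), and the call was kept without any 1 library. At 8 months the libraries held 40.4, 49.4 and 40.2 CPM, which was also above 1 month (log2 change 1.59, edgeR adjusted p = 0.00482). This comparison shares the 1-month libraries with that of 12 and 1 month. The libraries of 8 and 1 month all carried Y-linked counts, and the part of sex in the Dnmt1 values was not tested. In intact neurons Dnmt1 had an age change of -0.54 (edgeR adjusted p = 0.811), and the difference between the conditions, 2.48, was not called (edgeR adjusted p = 0.547). Of the 17 genes on the list 15 were tested, with a median log2 change of 0.15 and 9 of 15 positive. Dnmt3a, which writes new methyl marks, had 11.5, 11.2 and 9.70 CPM at 12 months and 18.8, 15.7 and 16.4 CPM at 1 month, lower at 12 months without overlap but not called (-0.66 ± 0.24, edgeR adjusted p = 0.130). Tet3, an enzyme that oxidizes methyl marks, had a change of 0.79 ± 0.27 (edgeR adjusted p = 0.117). The 6 readers of methyl marks on the list lay between -0.35 and 0.26.

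Interferon-stimulated genes were nearly all higher at 12 months, and 2 of 30 tested rose (6.67%, beside 1.94% of all genes tested). Of the 30, 29 had a positive change and the median log2 change was 0.74. Mx1 and Mx2 encode antiviral dynamin-like GTPases, and RefSeq classes both as transcribed pseudogenes in the reference strain. Mx1 (chr16:97447035-97462907) was at 15.8, 13.3 and 10.1 CPM at 12 months and 1.99, 0.979 and 0.672 CPM at 1 month (3.34 ± 0.45, edgeR adjusted p = 0.00799). Mx2 (chr16:97535308-97560900) was at 64.3, 70.99 and 44.2 CPM and 16.5, 12.4 and 17.2 CPM (1.94 ± 0.24, edgeR adjusted p = 0.00526). Both calls were kept without any 1 library. The 8-month libraries were higher still in Mx2, at 371, 205 and 101 CPM (8 against 1 month, edgeR adjusted p = 0.00544), and all 33 members tested were higher at 8 than at 1 month, with a median of 1.85 and 2 called. At 12 against 8 months the median was -1.06. The list summed to 2854, 1161 and 874 CPM at 8 months and to 887, 1165 and 910 CPM at 12 months. Only 8-month replicate 1, with 59.7% of endogenous counts on CT010467.1, thus lay above the highest 12-month sum. Between 12 and 1 month in intact neurons the list's median was -0.26, with 19 of 32 lower and none called. Irf7, a transcription factor of the interferon response, and H2-D1, an MHC class I chain, had changes of 2.46 ± 0.63 and 0.85 ± 0.22 that were not called (edgeR adjusted p = 0.0579 and 0.0566). Tbk1, a kinase that starts interferon production and was also named later, rose from 27.96, 27.6 and 30.9 to 59.6, 59.3 and 58.04 CPM (1.01 ± 0.16, edgeR adjusted p = 0.0129). The interferon-stimulated element, searched as GAAA, any 2 bases and GAAA again, was in 14 of 30 promoters of the list (46.7%) and in 3.04% of all 27025, on either strand. The immune cell markers summed to 9.10 to 15.9 CPM at 12 months and 6.42 to 45.9 CPM at 1 month, with 4 of 14 passing the filter, none called and none at 0 in all 6 libraries. Their part in the interferon values was not tested.

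The largest increases were in genes with almost no counts at 1 month. Hist1h2al, a histone H2A gene, had 107 counts in all at 12 months and 0 at 1 month, at least 33.6-fold higher when the group at 0 is set to 3 counts in sum. EU599041, Gm8000, AC134254.4, Gm7075 and Gm6218 likewise had 0 counts at 1 month and were at least 18.2, 17.6, 15.7, 13.8 and 11.9-fold higher. The calls of AC134254.4, Gm7075 and Gm6218 were lost whichever library was left out. EU599041 kept its call in 2 and Gm8000 in 1 of the 6 fits with 1 library left out. Ifi202b, an interferon-inducible DNA-binding protein (chr1:173962568-173982744), had 373 counts against 2, a scaled ratio of 176 (95% interval 48.3 to 1456), and was at 0 in the 3 libraries of 8 months. Wt1, a zinc finger transcription factor of kidney and gonad, had 365 counts against 3, a ratio of 115 (95% interval 38.9 to 558). Its call was kept in 3 of the 6 fits with 1 library left out. Dyrk4, a protein kinase, had 81 against 1, a ratio of 76.3 (95% interval 13.3 to 3051). Intervals and floors cover counting error only. Ajap1, a junction protein, was at 11.5, 23.1 and 8.58 CPM at 12 months, 0.306, 0 and 0.672 CPM at 1 month and 0, 0.175 and 0.353 CPM at 8 months. Among the injured low-input libraries it was thus high at 12 months alone (12 against 8 months, edgeR adjusted p = 0.0371). Ajap1, Ifi202b and Wt1 were at 0 in the 3 intact libraries of 12 months. Pooled single injured cells had 4 Ajap1 counts at 1 year against 475 at 1 month, and 0 Wt1 counts against 213, the opposite order. Ifi202b kept its order there, with 41 counts against 2.

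Copies of other genes were frequent among the increases. RefSeq classed 30 of 235 matched genes that rose as pseudogenes (12.8%), 9 of 310 that fell (2.90%) and 355 of 12112 tested (2.93%). Copies share sequence with their parent genes, so their counts are uncertain. Calls held in each of the 21 alternative fits and libraries left out for the pseudogenes Gm5564, Gm6969, Gm15710 and Tpm3-rs7 and for the noncoding RNA Gm10874, and the last 3 of these were named after their values were seen. Gm6969 (chr12:24638669-24639010) was at 33.6, 35.8 and 28.2 CPM at 12 months and 1.22, 0.979 and 0 CPM at 1 month (edgeR adjusted p = 0.00212). Gm10874 (chr5:138363719-138388287) was at 21.3, 22.9 and 22.4 and 0.611, 1.14 and 0.224 CPM (edgeR adjusted p = 0.00108). It lies on the same chromosome as Gm5564 (chr5:138504813-138505779), which was at 11.2, 13.2 and 11.2 and 0.458, 0.163 and 0 CPM (edgeR adjusted p = 0.00275). Gm6969 and Gm5564 were also high at 8 months, with 49.3, 87.3 and 76.2 CPM for Gm6969 and 25.2, 17.1 and 27.9 CPM for Gm5564. Pooled single injured cells had the opposite order for Tpm3-rs7 (11.3 CPM at 1 year against 28.4 at 1 month) and Gm10874 (19.2 against 21.9). They kept the order for Gm6969 (26.3 against 0.511), Gm5564 (10.9 against 5.87) and Gm15710 (16.5 against 14.8). Thus Tpm3-rs7, Gm10874 and Gm15710 were not near absent in single cells of 1 month. Eno1b, a copy of the glycolytic enolase gene, rose from 25.5, 26.9 and 25.98 to 99.1, 132 and 130.4 CPM (2.18 ± 0.17, edgeR adjusted p = 0.000882). Pgam1-ps2, a pseudogene of another glycolytic enzyme, fell from 75.3, 71.7 and 79.7 to 28.1, 34.3 and 30.04 CPM (-1.31 ± 0.16, edgeR adjusted p = 0.00526) and was lower still at 8 months, at 5.14, 7.16 and 6.00 CPM. None of the 15 glycolytic enzymes proper was called, and the list of 17 tested had a median of 0.01.

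In intact neurons 27 of 13281 genes tested (0.203%) differed between 12 and 1 month, 11 higher and 16 lower, in a fit of 12 libraries that includes the 6 injured ones. Of the 27, 10 were also called in injured neurons, which is 37.04% of the intact and 1.78% of the injured calls, and 9 of the 10 rose and 1 fell in both. The 9 were Hist1h2al, Gm5564, Gm6969, Gm10874, Gm15710, Gm6055, Gm10709, Llph-ps1 and Eno1b, and the 1 was Fbln2, an extracellular matrix protein. Gm6055, a pseudogene of the autophagy gene Map1lc3 (chr14:48079375-48079752), had 83.2, 120.3 and 88.5 CPM in injured neurons of 12 months and 11.8, 13.4 and 13.7 CPM at 1 month. Intact neurons had 96.4, 17.98 and 109.9 CPM and 13.2, 13.7 and 8.36 CPM. Pooled single injured cells had the opposite order for Gm6055, 63.1 CPM at 1 year against 112 CPM at 1 month. Hist1h2al, Gm10874, Gm10709 and Fbln2 also had the opposite order there, while Gm5564, Gm6969, Gm15710, Llph-ps1 and Eno1b kept it. Fbln2 was at 0, 0 and 0 CPM in the 3 intact libraries of 12 months and 3.78, 5.54 and 7.78 CPM at 1 month. In injured neurons it was at 14.9, 12.4 and 13.4 CPM and 28.6, 44.9 and 66.3 CPM. Of all 563 injured calls, 400 (71.05%) had the same sign in intact neurons, beside 56.4% of all genes tested. Intact 12-month replicate 2 held 449354 autosomal counts, and 40.5% of its counts other than CT010467.1 were mitochondrial. Without it the intact calls numbered 427, 49 of them shared, and 412 of 563 (73.2%) had the same sign beside 57.04% of all. The intact calls numbered 293 without intact 12-month replicate 1 and 0 without intact 1-month replicate 1 or 2. The difference between the age effects of injured and intact neurons was called for 0 of 13281 genes in edgeR (0%, with 1052 at an unadjusted p below 0.05) and in limma-voom, and for 53 in DESeq2. In simulated counts this edgeR test called 0% of 2-fold, 10.6% of 4-fold and 48% of 8-fold changes, so 0 calls cannot show that the age effects are alike. An age change called in injured neurons alone is therefore not shown to be particular to them. The main fit did not pair injured and intact libraries of the same replicate number. The labels do not say whether such libraries share an animal.

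**Figure D3:**
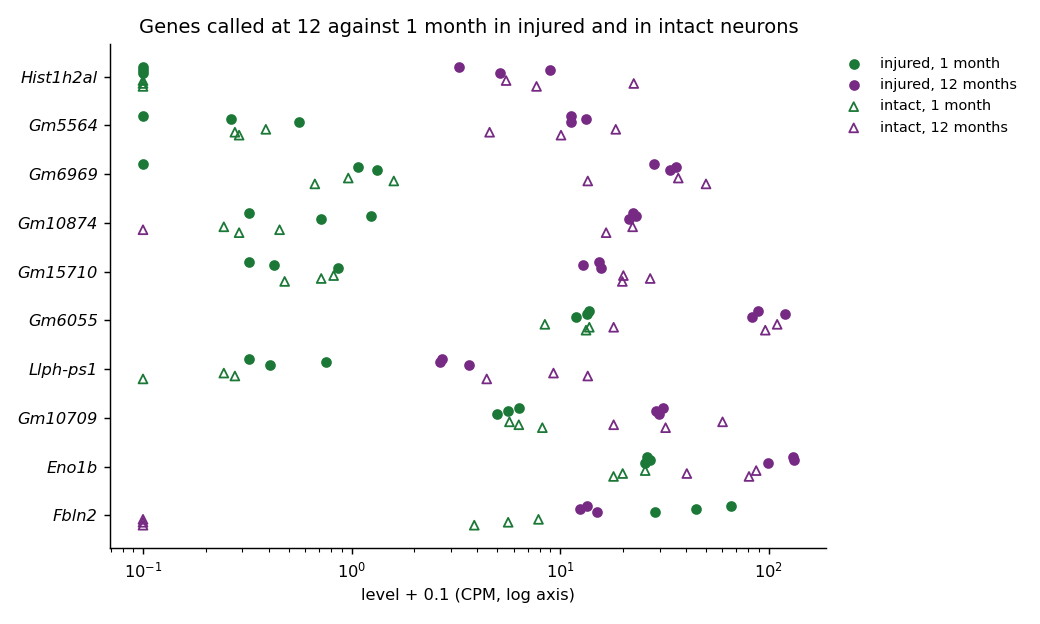
Levels (CPM + 0.1, log axis) of the 10 genes that passed the test of age in injured and also in intact neurons, 3 libraries a group. In 9 genes the injured libraries of 12 months (purple circles) all lie above those of 1 month (green circles), while Fbln2 goes the other way; intact libraries are triangles, and 1 of the 3 intact 12-month libraries is at 0 for Gm10874.

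The largest decreases were also at low levels. Tyrp1, a pigment enzyme gene, had 0 counts at 12 months and 113 at 1 month, at least 39.99-fold lower. Adamts17, Heyl, Has3 and Crybb1 had 1 to 3 counts at 12 months, with ratios of 60.5 (95% interval 10.4 to 2431), 55.2 (95% interval 9.48 to 2222), 24.4 (95% interval 6.39 to 208) and 23.4 (95% interval 7.65 to 116) in favour of 1 month. Above these in level were Fam198b (0, 0.599 and 0.187 CPM at 12 months and 5.04, 8.49 and 8.96 CPM at 1 month), Oaf, Cybrd1, Entpd2, 3110053B16Rik, Erbb2 and Itgb3, with log2 changes from -4.39 for Oaf to -3.39 for Itgb3. Entpd2, an ATP-splitting surface enzyme, and Erbb2, a receptor chain for neuregulins, are known from the glia of peripheral nerve. Entpd2 was at 0, 0.449 and 0.187 and 2.60, 3.10 and 4.70 CPM (edgeR adjusted p = 0.0324), and Erbb2 at 0, 0.300 and 0.560 and 2.44, 3.75 and 3.36 CPM (edgeR adjusted p = 0.0437). Neither call was kept with any library left out, nor were those of Has3, Crybb1 and Cybrd1. Heyl and Oaf each kept theirs in 1 of the 6 fits with 1 library left out. Nid1, a protein of the basement membrane named after its values were seen, was at 1.46, 2.25 and 2.80 CPM and 15.4, 21.9 and 22.6 CPM (-3.21 ± 0.34, edgeR adjusted p = 0.00245) and kept its call without any 1 library.

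Markers of satellite glia, the cells that wrap each sensory neuron, were lower at 12 months than at 1 month. Of the 12 markers 11 were autosomal and tested, 2 of them fell (18.2%, beside 2.53% of all genes tested), none rose, 9 had a negative change and the median log2 change was -2.41. Their sum was 356, 1137 and 948 CPM at 12 months, 878, 1785 and 1789.5 CPM at 8 months and 3260.3, 5123 and 5045 CPM at 1 month, so that the older libraries did not overlap the younger ones (exact permutation p = 0.1, the smallest possible, adjusted p = 0.4). No marker was at 0 in all 6 libraries. Sox10, the transcription factor of glia, was at 0.487, 3.59 and 1.87 and 10.4, 15.7 and 11.6 CPM (-2.65 ± 0.56, edgeR adjusted p = 0.0306), and Ptprz1, a receptor phosphatase, at 5.04, 7.94 and 10.3 and 21.4, 25.6 and 30.5 CPM (-1.76 ± 0.30, edgeR adjusted p = 0.0168). Apoe, a lipid carrier and the most abundant of the markers by counts, was at 1.14, 742 and 599 CPM and 2851, 4611 and 4529 CPM, with 12-month replicate 1 far below the other 2 (edgeR adjusted p = 0.375). Fabp7, a fatty acid binding protein of these glia, was at 1.95, 17.5 and 13.6 and 22.9, 62.8 and 38.1 CPM. In intact neurons the sums were 158, 1784 and 251 CPM at 12 months and 315, 711 and 1551 CPM at 1 month, which overlap. The part of glial RNA in the 319 decreases was not tested.

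**Figure D4:**
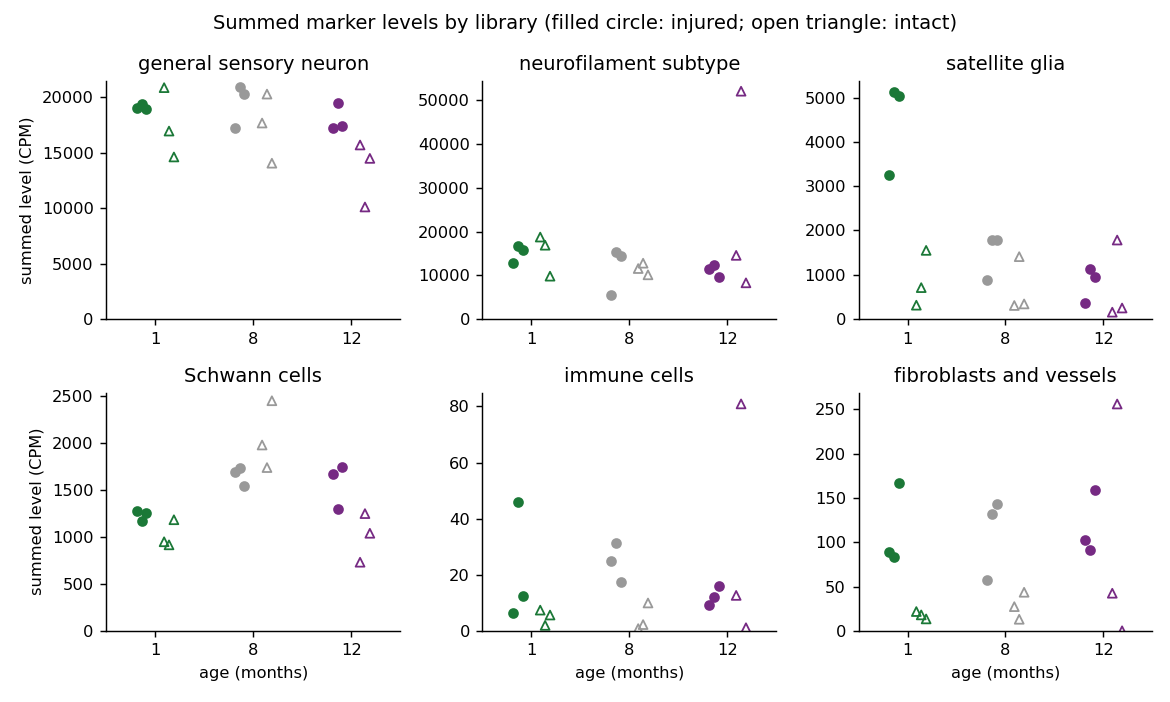
Summed level in CPM of 6 marker lists in each of the 18 low-input libraries by age in months. Circles are injured and triangles intact libraries; satellite glia markers are highest in the 3 injured libraries of 1 month (3260.3 to 5123 CPM) and general neuron markers lie between 17271 and 20937 CPM in all 9 injured libraries.

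Other cell markers differed less. Of the Schwann cell markers 7 of 12 were tested, none was called and the median was -0.63, although the sum was higher at 12 months, 1666, 1298 and 1740.3 CPM against 1277, 1171 and 1253 CPM (exact permutation p = 0.1, adjusted p = 0.4), with positive changes of Pmp22 and Scn7a (0.31 and 0.53), which hold most of the counts. Of these markers 2 were at 0 in all 6 libraries. Of the fibroblast and vessel markers 6 of 12 were tested, none was called, the median was -0.46 and the sums overlapped, at 91.8 to 159.6 CPM and 83.4 to 167 CPM. Rgs5, a pericyte marker, was at 25.5, 0 and 35.8 and 0, 0 and 4.48 CPM. Among the red cell markers Hba-a2 alone was tested and was not called.

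Cytosolic ribosomal protein genes had 78 of 84 members tested, of which 3 fell (3.85%, near the 2.53% of all genes), none rose and 61 had a negative change, with a median of -0.25. Rpl29 went from 211, 265 and 222 to 98.6, 101 and 101 CPM and was lower still at 8 months, at 42.98, 32.1 and 29.8 CPM (12 against 8 months, edgeR adjusted p = 0.00854). Rpsa fell by 0.72 and Rps4l, a transcribed pseudogene, by 1.33 on the log2 scale. In intact neurons the list's median was 0.28 with none called, and without intact 12-month replicate 2 it was 0.46, with 71 of 79 higher and 6 called. Lysosome and autophagy genes, all 27 tested, had 3 decreases (11.1%, beside 2.53% of all genes tested), while the list's median was -0.03. Among them were Lamp1, the main protein of the lysosome membrane (-0.67), and Map1lc3a, the autophagosome protein LC3A, which went from 1747, 1614 and 2050.1 to 1001, 1263 and 1122 CPM (edgeR adjusted p = 0.0293).

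Stress and growth lists showed single calls. Among chaperones and the unfolded protein response 27 of 28 were tested (median 0.10) and 2 rose (7.41%, beside 1.94% of all genes tested). Hspd1, the mitochondrial chaperonin, went from 245, 259 and 251 to 361, 367 and 358 CPM (edgeR adjusted p = 0.0419), and Asns, the asparagine synthetase induced by the integrated stress response, from 265, 294 and 268 to 425, 418 and 425 CPM (edgeR adjusted p = 0.0260). The libraries of an age lay close together in both, yet neither call was kept with a library left out. Of 20 p53 targets and senescence genes 17 were tested (median 0.32), of which 1 rose and 1 fell (5.88% each, beside 1.94% and 2.53% of all genes tested). Ccng1, cyclin G1, rose by 0.82 and Phlda3, an inhibitor of Akt signalling, fell by 1.16 on the log2 scale, so the 2 calls of this list had opposite signs, and Cdkn1a, the p21 gene, was not called (0.93 ± 0.53). In the growth cone list (18 tested, median 0.18) Basp1, a membrane protein of growth cones, fell from 179, 106 and 137 to 77.8, 45.98 and 58.4 CPM (edgeR adjusted p = 0.0260) while Gap43, another growth cone protein, was not called (0.35 ± 0.19). None of 12 immediate early genes tested was called (median -0.16), Egr1 being at 18.2, 14.4 and 25.2 and 38.8, 42.4 and 27.8 CPM (edgeR adjusted p = 0.0651). Of 8 markers of nervous tissue ageing 4 were tested and none was called (median -0.07), Clu at 1453 ± 207 and 1943 ± 543 CPM and Serpina3n at 460.0 ± 80.003 and 369 ± 55.2 CPM.

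Of 41 imprinted genes, which are expressed from 1 parental allele, 33 were tested, with a median of 0.02. Of these 1 rose and 1 fell (3.03% each, near the 1.94% and 2.53% of all genes tested). Zrsr1, expressed from the paternal allele, rose from 20.2, 16.7 and 16.8 to 38.02, 41.5 and 34.5 CPM (edgeR adjusted p = 0.0215). Gnas, the complex locus of the stimulatory G protein alpha subunit (chr2:174284320-174346744), fell from 198, 136 and 199 to 55.1, 59.3 and 49.6 CPM (-1.72 ± 0.18, edgeR adjusted p = 0.00245) and lost its call in only 1 of 21 alternatives. It was at 69.6, 96.03 and 74.6 CPM at 8 months (8 against 1 month, edgeR adjusted p = 0.0257). Both loci overlap other transcripts and counting used no strand, so reads of overlapping genes cannot be told apart from theirs. Fam213b, named after its values were seen and not matched to a RefSeq symbol, fell from 149, 159 and 149 to 61.9, 62.8 and 51.1 CPM (edgeR adjusted p = 0.00245).

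The libraries of 8 months, not used to make the calls, lay mostly between the other ages. The mean of 8 months was between those of 1 and 12 months for 428 of the 563 genes (76.02%), beside 32.5% of all genes tested. It was past 12 months for 90 (15.99%) and on the far side of 1 month for 45 (7.99%), and 309 (54.9%) were nearer to 12 than to 1 month on a log2 scale with 0.5 CPM added. For a called gene the ends are far apart by selection, so these shares describe the genes and are no test. At 8 against 1 month 126 of 12976 genes (0.971%) were called, 64 higher and 62 lower, and at 12 against 8 months 32 (0.247%), 26 higher and 6 lower. Without 8-month replicate 1 these counts were 191 and 125. Both comparisons share libraries with that of 12 and 1 month. The plot of levels by age shows Atp5g1, Cox5b, Dnmt1 and Nfil3 with 8-month means between the others, Hmgcs1 near 1 month (354 ± 61.99 CPM at 8 months against 341 ± 47.99 at 1 month, SD, n = 3 each) and Mx2 above both. In some genes 8-month replicate 1 stood apart from the other 2, as in Nefh (476, 1753 and 1431 CPM) and Il6st (1447, 420.1 and 609.7 CPM).

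**Figure D5:**
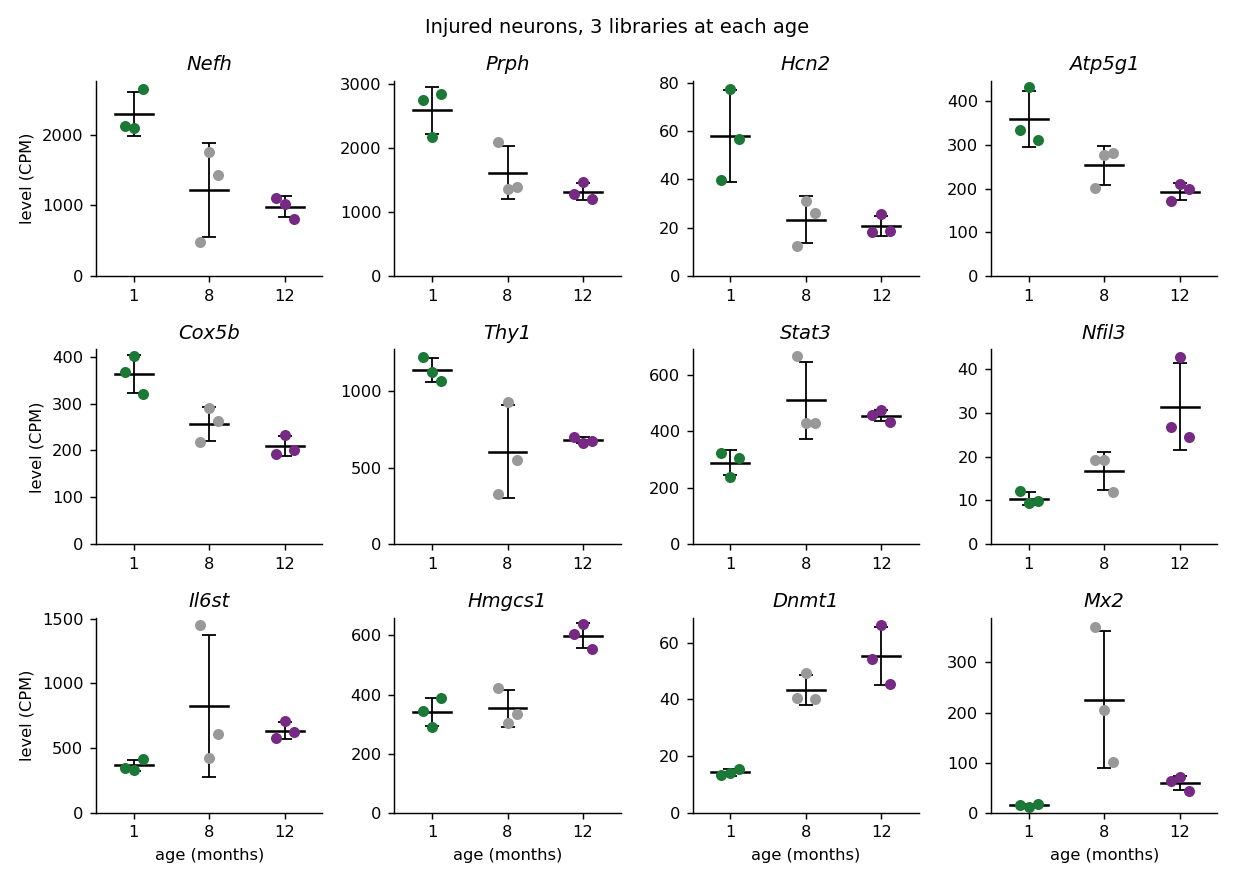
Level in CPM of 12 genes in the 3 injured libraries of each age, with lines for the mean and bars for the SD. At 12 and 1 month the points of each gene do not overlap, as in every called gene, from Nefh (813 to 1100.3 against 2105 to 2658 CPM) to Dnmt1 (45.5 to 66.05 against 13.3 to 15.5 CPM), while 8-month points are often widely spread.

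Single injured neurons gave a second readout of the same ages, 21 cells of 1 month and 22 of 1 year, of which 1 had no counts. No animal is named for them, so each age counts as 1 sample and no test was made. The cells held 4161 to 7956006 autosomal counts at 1 month and 266 to 21563851 at 1 year. Pooled over cells, 264 of the 563 genes (46.9%) had the same order of the ages as in the low-input libraries, beside 47.4% of all genes tested, a share near the background. The share was 50.8% for the 244 higher genes and 43.9% for the 319 lower ones. Dnmt1 had the same order, 44.4 (42.95 to 45.8) CPM pooled at 1 year against 27.3 (25.9 to 28.8) CPM at 1 month (95% Poisson intervals, counting error only), as did Eno1b with 94.9 (92.8 to 97.03) against 35.5 (33.8 to 37.2) CPM and Prph with 2053 (2043 to 2063) against 3187 (3171 to 3203) CPM. Mx2 also had it, with 23.03 (22.01 to 24.1) CPM and a count in 14 of 21 cells against 1.53 (1.21 to 1.92) CPM and 7 of 21 cells. Nefh had the opposite order, with 2029 (2019.7 to 2039) CPM at 1 year against 1126 (1117 to 1136) CPM, and so did Stat3 with 365 (361 to 369) against 471 (465 to 477) CPM. Among the injury markers, Atf3 was at 89.2 (87.2 to 91.3) CPM against 851 (843 to 859) CPM and Sprr1a at 5.98 (5.46 to 6.53) against 1958 (1946 to 1971) CPM, with a Sprr1a count in 8 of 21 cells against 13 of 21. For Atf3 the median cell was nearer between the ages, at 33.1 against 92.3 CPM. For Sprr1a the median cell of 1 year had 0 CPM, against 6.65 CPM at 1 month. Jun was at 351 (347 to 355) CPM against 326 (321 to 331) CPM and Il6st at 731 (725 to 737) against 338 (333 to 344) CPM, both with the order of the low-input libraries. Socs2, Nfil3 and Plaur had the opposite order, pooled at 60.4, 6.45 and 12.1 CPM at 1 year against 100, 23.5 and 50.8 CPM. Glial markers had the opposite order to the low-input libraries, with a median sum per cell of 3124 CPM at 1 year (311 to 70658) against 229 CPM at 1 month (0 to 13015). Y-linked counts were seen in 17 of 21 cells of 1 month and 1 of 21 of 1 year, and Xist in 0 and 10.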

How the data were processed

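Low-input RNA of hand-picked dorsal root ganglion neurons was analysed from the deposited table of fragment counts per gene. Per the file headers these counts were made with featureCounts 1.5.2 on paired-end alignments, by exon and gene name of GENCODE vM16 with ERCC spike-ins, without a strand option. Trim Galore, STAR, Bismark and mm10 are named in the submitters' processing notes. The table holds 53370 features, of which 92 are spike-ins and 49058 are autosomal genes, and 0 of its 87 count columns went unused for lack of a sample. Counts of single neurons came from the same table.

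Spike-ins, CT010467.1 and genes of X, Y and mitochondria were removed. The 3 injured libraries of 12 months and the 3 of 1 month were compared with edgeR 4.0.16 (filterByExpr, TMM, robust quasi-likelihood test, two-sided) in R 4.3.3, with Benjamini-Hochberg adjustment and a threshold of 0.05. Intact neurons and the difference between conditions were fitted on 12 libraries, and 8 months on the 9 injured ones. DESeq2 1.42.0, limma 3.58.1, other scalings, filters and sample sets were alternatives. Levels are CPM on 1 TMM scaling of 18 libraries. Library measures were compared by exact two-sided permutation (scipy 1.17.1). The code was tested on simulated data. There the test of injured 12 against 1 month called 35.4% of 2-fold and 85.4% of 4-fold changes, with 16 false calls among 167. Members and the 26 gene lists were chosen with earlier results of these data known. Named genes were the 12 largest increases and 12 largest decreases among calls without overlap and every called list member, or else the 2 most abundant members and the 1 of smallest p; genes marked as named later, and list members named without a call, were chosen after their values were seen. Gene types and promoters came from RefSeq GRCm38.p6. Some libraries are listed again under the same name, and their 1 count column was used once. Some genes counted in the lists are not reported here by name.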

Additional observations from a re-analysis of the deposited data

Results flagged for a closer look

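Sex-linked RNA, which the comparison of autosomal genes leaves out, separated the ages. Summed over Kdm5d, Uty, Ddx3y and Eif2s3y on the Y chromosome, there were 374, 343 and 287 counts in the injured libraries of 1 month and 0 in those of 12 months. Xist had 226, 53 and 34 counts in the injured libraries of 12 months and 0 in those of 1 month. Age and sex cannot be told apart here.

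In 3 of the named called genes the older and younger libraries did not overlap in injured neurons or in intact ones. The direction was opposite in the 2 conditions. In injured neurons alone such non-overlap held for every called gene and for 30.1% of all genes tested. The share of all genes tested with non-overlap in opposite directions was not counted, and Il6st was picked out after its values were seen. Ndufa2, a subunit of complex I, had a log2 change of -0.71 in injured and 0.72 in intact neurons, and Uqcrq, a subunit of complex III, of -0.75 and 0.69. Il6st, the gp130 receptor chain, had 0.78 in injured and -1.53 in intact neurons. The difference between the conditions was not called in edgeR for any of them (adjusted p = 0.407, 0.353 and 0.277).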

How the results depend on the processing

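The 563 calls of 12 against 1 month in injured neurons became 35 with spike-in scaling, 1623 with no filter on low counts, 1194 with DESeq2, and 107, 9 and 13 with 9, 12 and 18 libraries in the fit, the cause of which was not tested. They ranged from 104 (without 1-month replicate 2) to 378 with 1 library left out. With spike-in scaling the 563 genes kept their direction. The replicate numbers did not pair the ages (correlations of same-numbered deviations 0.0952, 0.0290 and 0.136), and a replicate block gave 307 calls. Calls between intact ages numbered 12600 with spike-in scaling, 425 with DESeq2, 15 with limma-voom and 0 to 427 with 1 library left out. The difference between conditions gave 6572 calls with spike-in scaling, 53 with DESeq2 and 0 to 1 with 1 library left out. At 8 against 1 month 641 (DESeq2), 79 (limma-voom), 32 (18 libraries), 55 (replicate block) and 37 to 191 (1 library left out) were called, and at 12 against 8 months 656, 7, 3, 6 and 4 to 125. List medians relative to all genes moved beyond their spread for immune cells (0.75 with the stricter filter, -2.17 to -0.22 with 1 library left out), injury and regeneration (0.56 to 1.06), DNA methylation (-0.0105 to 0.30), fibroblasts (-0.77 to -0.0803), imprinted genes (0.00123 to 0.13) and the tyrosine hydroxylase class (-0.71 to -0.0122). Of 2560 values of single named genes under the alternatives, 1879 kept their side of the threshold, 655 lost the call and 26 gained it. Pooled and median values over single cells differed for 117 of 123 genes at 1 month and 118 at 1 year.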
